A study of Homo sapiens with 4 samples.

Results

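The 10 genes described here encode the enzymes of the urea cycle and of arginine and creatine synthesis, and were taken by name from the gene column of the deposited count table: NAGS, CPS1, OTC, ASS1, ASL, ARG1, ARG2, AGMAT, GATM and GAMT. All 10 were in the library, each with 4 sgRNAs, which gives 40 of the 7142 sgRNAs and 10 of the 1773 genes targeted by 4 sgRNAs. The screen asked which metabolic enzymes change the sensitivity of colorectal cancer cells to oxaliplatin, a platinum drug that crosslinks DNA. HCT116, an established human colon carcinoma line, was transduced with a lentiviral Cas9 knockout library at a low ratio of virus to cells, so that most cells received 1 sgRNA, and was selected with puromycin. The selected cells were then divided into 4 groups, of which 1 received PBS and 3 received 10 µM oxaliplatin, all for 7 days, and all 4 groups carried the same library. The sgRNA region of the surviving cells' genomic DNA was amplified and counted, so a count reflects how many survivors held that sgRNA, and no RNA or protein level was measured. Whether the cell line expresses these enzymes therefore cannot be read from these counts.

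The urea cycle turns ammonia into urea, and is complete mainly in the liver. In the mitochondrion NAGS makes N-acetylglutamate, the activator that CPS1 needs to form carbamoyl phosphate, and OTC joins carbamoyl phosphate to ornithine to give citrulline. In the cytosol ASS1 joins citrulline and aspartate to argininosuccinate, ASL splits argininosuccinate into arginine and fumarate, and the arginases ARG1 (cytosolic) and ARG2 (mitochondrial) return arginine to ornithine and urea. Many cells lack the mitochondrial steps and use ASS1 and ASL to make arginine, and some tumours silence ASS1 and depend on arginine from outside. Arginine also feeds creatine, for which GATM forms guanidinoacetate and GAMT methylates it, and AGMAT is named for the hydrolysis of agmatine, the decarboxylation product of arginine, to putrescine and urea.

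ASS1 and AGMAT were among the 10 genes that the study picked from these same libraries for single knockouts, so their standing here is not independent evidence of a direction. The sgRNAs designed for those knockouts are shown because they are the only sequences given for these 10 genes in the sources used here, and which of the 4 library sgRNAs they match, if any, is not given. Both have 20 bases, written 5′ to 3′ as DNA, and capitals mark the 12 bases at the 3′ end, next to the PAM, where pairing matters most for Cas9.
ASS1: tgacctgaTGGAGTACGCAA
AGMAT: gacagtcaATCCTAGCACGG
The ASS1 sgRNA held 50% G and C and the AGMAT sgRNA 55%. Neither matched the promoter windows of its gene in RefSeq's GRCh38.p14 tables on either strand (2 windows for ASS1 and 1 for AGMAT), which says only that these letters are not in those windows.

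The library labelled PBS held 8934799 counts, against 27563013 in oxaliplatin replicate 1, 10494731 in replicate 2 and 11146921 in replicate 3. The 40 sgRNAs are 0.560% of the library and took 0.469% of the counts with PBS and 0.593%, 0.643% and 0.594% in the oxaliplatin replicates. Some sgRNAs of these genes were missing with PBS but not with oxaliplatin. Over the whole library, too, more sgRNAs were missing with PBS than with oxaliplatin. With PBS, 9 of the 40 sgRNAs were at 0 (22.5%, 95% exact binomial interval 10.8 to 38.5), against 1354 of all 7142 (19.0%), and 16 of the 40 had under 10 counts (40%), against 2142 of all 7142. In each oxaliplatin library 0 of the 40 were at 0 (exact interval up to 8.81%). Of all 7142 sgRNAs, 2.30%, 0.308% and 0.0280% were at 0 in oxaliplatin replicates 1, 2 and 3. Among the members, the PBS counts fell into separate ranges, with 16 sgRNAs at 0 to 9, 0 at 10 to 99 and 24 at 100 or more. The middle range was sparse over the whole library too, with 141 of all 7142 sgRNAs at 10 to 99 and 4859 at 100 or more. The gap is therefore not particular to these genes. These intervals, and the floor of 3 counts used below, cover counting error only, because reads copied by PCR and not tagged by molecule are not independent. No library from before the drug was analysed here, so a low count with PBS cannot be told apart from fewer copies of that sgRNA at the start.

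**Figure D1:**
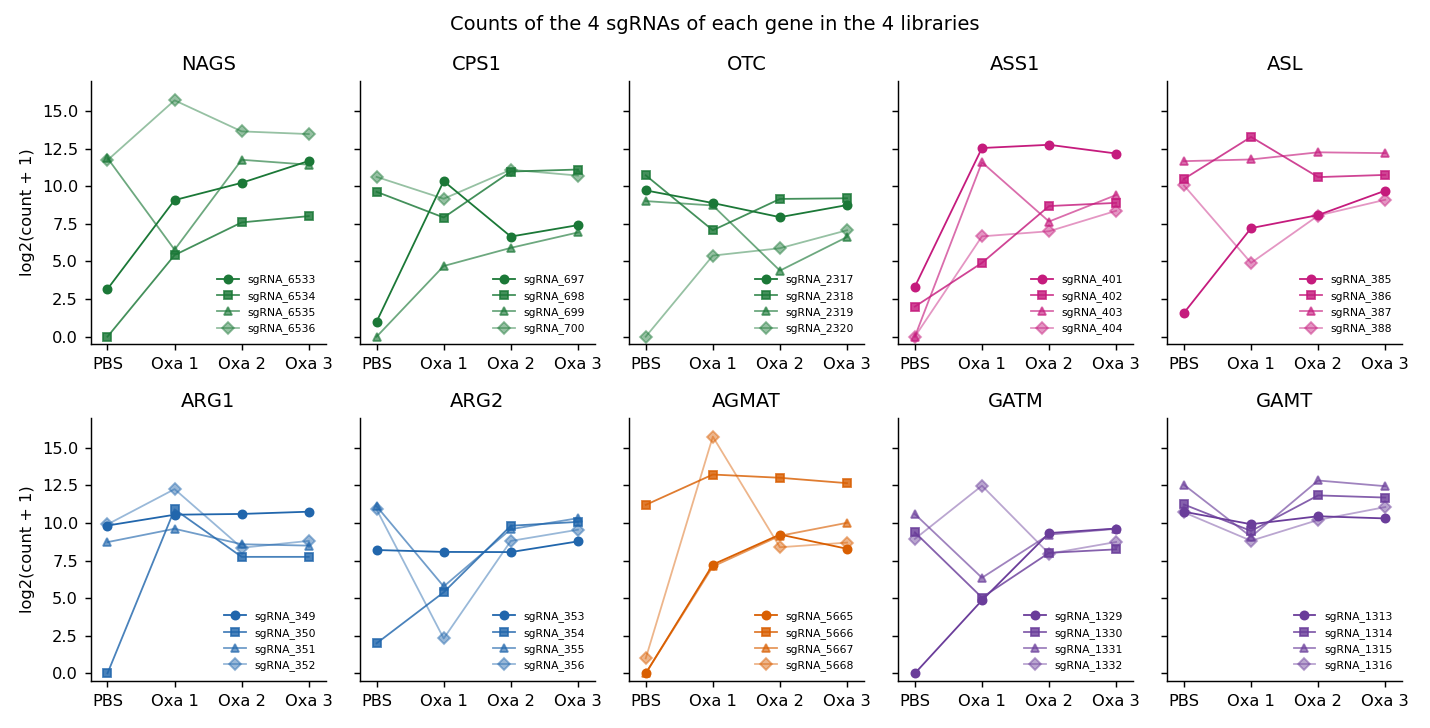
Log2(count + 1) (y axis) of each of the 4 sgRNAs of the 10 genes in the library labelled PBS and oxaliplatin replicates 1, 2 and 3 (x axis), with lines that join the values of 1 sgRNA and colours for the role of the gene. All 4 sgRNAs of ASS1 start under 10 counts with PBS, while those of GAMT all start above 1000 and are lowest in oxaliplatin replicate 1.

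Fold changes are oxaliplatin over the library labelled PBS, so a positive value means more counts with oxaliplatin. This sign is opposite to that of the study's own table of the screen. Every direction and rank below follows the deposited labels and would turn if PBS and oxaliplatin were exchanged, which these counts cannot settle. Each sgRNA's value is log2((oxaliplatin + 1)/(PBS + 1)) after scaling by MAGeCK's median ratio. A gene takes the median of its 4 sgRNAs, given as the mean ± SD of the 3 comparisons. All 3 comparisons share the single PBS library, so the SD leaves out the spread of PBS, and beyond that split into 4 groups the sources do not say how far the 3 oxaliplatin libraries are independent, so p-values may measure technical spread alone. Tests by edgeR assume that the PBS library varies like the oxaliplatin libraries, and an exact permutation of 1 library against 3 cannot go below p = 0.25. For an sgRNA at 0 with PBS the fold is given as a lower bound, against a floor of 3 PBS counts.

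ASS1 sgRNAs were nearly absent with PBS and present in every oxaliplatin library. sgRNA_401 had 9 counts with PBS and 5981, 6939 and 4640 in oxaliplatin replicates 1, 2 and 3. sgRNA_402 had 3 with PBS and 29, 411 and 476 with oxaliplatin. The other 2 were at 0 with PBS, and sgRNA_403 had 3094, 201 and 685 counts with oxaliplatin and sgRNA_404 had 101, 128 and 330. All 4 were thus lower with PBS than in each oxaliplatin library, and no other of the 10 genes had all its sgRNAs under 10 counts with PBS. The ratio of sgRNA_401 was 402, 618 and 364 in the 3 comparisons. For sgRNA_402, with 3 PBS counts, the ratio was 5.84 in replicate 1 (95% counting interval 1.81 to 29.98), 110 in replicate 2 (37.3 to 534) and 112 in replicate 3 (38.1 to 545). sgRNA_403 was at least 623-fold, 53.7-fold and 161-fold higher, and sgRNA_404 at least 20.4-fold, 34.2-fold and 77.7-fold higher. The gene's median log2 fold change was 7.62 ± 0.56 (SD, n = 3 oxaliplatin libraries), and 6.61 with counts under 3 set to 3, which placed ASS1 at rank 21 from the top of 1773 genes. The size rests on PBS counts of 9 or fewer, and with a pseudocount of 50 the median was 3.14.

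Summed over the 4 sgRNAs, ASS1 had 12 counts with PBS and 9205, 7679 and 6131 with oxaliplatin, or 1.34 against 334, 732 and 550 CPM, the counts scaled to equal library totals. In edgeR's quasi-likelihood test on these sums, the fold change of ASS1 was 8.93 on the log2 scale with an unadjusted p of 2.03e-04 and an adjusted p of 0.230. No gene of the 1823 entries tested passed an adjusted p of 0.05 in either direction in this test (0% higher and 0% lower), and at an unadjusted p under 0.05 there were 85 entries higher and 33 lower, of which 1 higher (ASS1) and 1 lower (OTC) were among the 10. DESeq2 on the same sums called ASS1 higher and OTC lower, where 6.75% of all entries were called higher and 2.03% lower. Without oxaliplatin replicate 2, edgeR called ASS1 with an adjusted p of 9.9e-04, 1 of 8 entries called higher of 1823, and without replicate 3 its adjusted p was 0.0956.

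ASL, which acts directly after ASS1, had no such pattern. sgRNA_385 had 2 counts with PBS and 148, 271 and 837 with oxaliplatin. sgRNA_386 had 1438 with PBS and 9963, 1563 and 1731, and sgRNA_387 had 3262 with PBS and 3527, 4907 and 4718. sgRNA_388 had 1065 with PBS and 29, 265 and 550. The 4 sgRNAs of ASL therefore differed widely, from 1 that was scarce with PBS to 1 that was lower in every oxaliplatin library. The latter, sgRNA_388, was lower by 60.8-fold, 5.02-fold and 2.74-fold after scaling. For sgRNA_385 the ratio was 44.7 (12.2 to 373), 109 (29.8 to 901) and 296 (81.6 to 2444) in the 3 comparisons, with counting intervals in parentheses. The gene's median log2 fold change was 0.22 ± 0.44, close to the median of all genes (0.20). With sgRNAs of at least 100 PBS counts alone it was -0.35.

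AGMAT was the other gene near the top, with 3 of its 4 sgRNAs scarce with PBS. sgRNA_5665 was at 0 with PBS and had 150, 601 and 311 counts with oxaliplatin, and sgRNA_5667 was at 0 and had 137, 567 and 1032. sgRNA_5668 had 1 count with PBS and 54861, 334 and 414 with oxaliplatin. Only sgRNA_5666 of this gene was well counted everywhere, with 2360 counts with PBS and 9563, 8230 and 6424 with oxaliplatin. All 4 were higher in each oxaliplatin library. sgRNA_5665 was at least 30.2-fold, 161-fold and 73.2-fold higher, and sgRNA_5667 at least 27.6-fold, 151-fold and 243-fold. sgRNA_5666 was higher by 2.45-fold, 2.79-fold and 1.92-fold, so its replicate 3 value missed a 2-fold limit. sgRNA_5668 held 84.8% of the gene's counts in oxaliplatin replicate 1, and its ratio there was 33164 (counting interval 5952 to 1.31e+06), against 268 (47.7 to 10601) and 292 (52.2 to 11574) in replicates 2 and 3.

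The median log2 fold change of AGMAT was 7.52 ± 0.64, at rank 23 of 1773 genes, and 6.04 with counts under 3 set to 3. The sum over the 4 sgRNAs was 2361 counts with PBS and 64711, 9732 and 8181 with oxaliplatin, or 264 CPM against 2348, 927 and 734. The sums, which sgRNA_5666 led in PBS with 99.96% of the counts, thus differed far less from PBS than the median, and the edgeR adjusted p of the gene was 0.730. From sgRNA_5666 alone, the 1 sgRNA with at least 100 PBS counts, the value was 1.24.

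The 3 mitochondrial enzymes that make citrulline had different patterns. Of NAGS, sgRNA_6533 had 8 counts with PBS and 541, 1200 and 3292 with oxaliplatin, and sgRNA_6534 was at 0 and had 42, 193 and 258. The other 2 NAGS sgRNAs were abundant with PBS and went opposite ways. sgRNA_6536 had 3410 counts with PBS and 53906, 12866 and 11373 with oxaliplatin, the top count of the 40 sgRNAs in replicates 2 and 3. sgRNA_6535 had 3760 with PBS, 54 in oxaliplatin replicate 1, and 3476 and 2770 in replicates 2 and 3. After scaling, sgRNA_6536 was 9.56-fold, 3.02-fold and 2.36-fold higher, while sgRNA_6535 was 115-fold lower in replicate 1 and 1.35-fold and 1.92-fold lower in the others. sgRNA_6536 was the 1 member with at least 100 PBS counts that was at least 2-fold higher in all 3 libraries, of 24 such members, where 3.4% of all 4859 such sgRNAs were. The NAGS median was 4.28 ± 0.19. This spread over libraries was that of the median alone. The SDs of sgRNA_6533, sgRNA_6534, sgRNA_6535 and sgRNA_6536 over the same comparisons were 1.41, 1.47, 3.55 and 1.08. With the 2 well counted sgRNAs alone, which went opposite ways, the median was -0.35.

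CPS1, the first enzyme of the cycle, had 2 sgRNAs scarce with PBS and 2 abundant ones. sgRNA_697 had 1 count with PBS and 1299, 100 and 170 with oxaliplatin, and sgRNA_699 was at 0 and had 25, 59 and 121. sgRNA_698 had 793 with PBS and 242, 2020 and 2218 with oxaliplatin, and sgRNA_700 had 1579 and then 576, 2195 and 1679. The abundant pair was lower than PBS in oxaliplatin replicate 1 after scaling, by 5.42-fold and 4.53-fold. In replicates 2 and 3 the same pair lay between 1.33-fold lower and 2.04-fold higher. The ratio of sgRNA_697 was 785 (counting interval 141 to 31040), 80.1 (14.1 to 3196) and 120 (21.3 to 4769), and sgRNA_699 was at least 5.04-fold, 15.8-fold and 28.5-fold higher. The median was 2.61 ± 1.32, and 1.83 with counts under 3 set to 3. The summed CPM was 266 with PBS and 77.7, 417 and 376 with oxaliplatin, so the PBS value lay within the oxaliplatin range.

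OTC, which makes citrulline, had the opposite pattern, with 3 of its 4 sgRNAs lower in every oxaliplatin library. sgRNA_2317 had 847 counts with PBS and 473, 246 and 430 with oxaliplatin. sgRNA_2318 had 1701 with PBS and 134, 571 and 589. sgRNA_2319 had 517 with PBS and 422, 20 and 98. Scaled for depth, sgRNA_2317 was 2.96-fold, 4.30-fold and 2.79-fold lower, sgRNA_2318 21.0-fold, 3.72-fold and 4.09-fold, and sgRNA_2319 2.03-fold, 32.3-fold and 7.47-fold. The other sgRNA of OTC, sgRNA_2320, was at 0 with PBS and had 41, 58 and 134 counts, at least 8.26-fold, 15.5-fold and 31.5-fold higher. The median of OTC was -1.68 ± 0.36, and the mean over its sgRNAs was -0.39. The summed CPM was 343 with PBS against 38.8, 85.3 and 112 with oxaliplatin. edgeR gave the sums a fold change of -1.88 on the log2 scale (unadjusted p 0.0266, adjusted p 0.697).

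The arginases differed from each other. Of ARG1, the cytosolic liver enzyme, sgRNA_349 had 910 counts with PBS and 1500, 1554 and 1724 with oxaliplatin, sgRNA_351 had 423 and then 784, 384 and 360, and sgRNA_352 had 961 and then 4880, 326 and 448. sgRNA_350 was at 0 with PBS and had 1922, 214 and 214, at least 387-fold, 57.2-fold and 50.4-fold higher. sgRNA_352 was thus 3.07-fold higher in replicate 1 and 3.68-fold and 3.04-fold lower in replicates 2 and 3, and sgRNA_349 and sgRNA_351 stayed within 2-fold in all 3. The ARG1 median was 0.24 ± 0.57.

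Of ARG2, the mitochondrial arginase, sgRNA_355 had 2217 counts with PBS and 54, 770 and 1276 with oxaliplatin, and sgRNA_356 had 1909 and then 4, 447 and 750. Both were lower in every oxaliplatin library, sgRNA_355 by 67.9-fold, 3.59-fold and 2.46-fold and sgRNA_356 by 789-fold, 5.33-fold and 3.60-fold. The 4 counts of sgRNA_356 in replicate 1 were the lowest oxaliplatin count of the 40 sgRNAs. sgRNA_353 had 294 with PBS and 269, 267 and 438, and sgRNA_354 had 3 and then 41, 902 and 1077, a ratio of 8.26 (counting interval 2.64 to 41.7), 241 (82.2 to 1170) and 254 (86.5 to 1231). The median of ARG2 was -1.74 ± 1.51, at rank 1638 of 1773, and it was -3.45 in replicate 1 against -1.15 and -0.61 in replicates 2 and 3. It was the lowest of the 10 genes only through replicate 1, without which it was -0.88 and OTC -1.87.

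Both creatine synthesis genes had a median below 0, though by different sgRNA patterns. A value below 0 was usual for well counted sgRNAs. With at least 100 PBS counts required, the median was -0.996 over all genes, -2.71 for GATM and -1.08 for GAMT. Of GATM, which takes the first step, sgRNA_1330 had 666 counts with PBS and 32, 258 and 303 with oxaliplatin, and sgRNA_1331 had 1545 and then 81, 599 and 783. They were lower by 34.4-fold, 3.22-fold and 3.11-fold and by 31.6-fold, 3.22-fold and 2.79-fold. sgRNA_1332 had 490 with PBS and 5717, 248 and 426, which is 7.05-fold higher in replicate 1 and 2.47-fold and 1.63-fold lower in the others, and it held 97.6% of the gene's counts in replicate 1. sgRNA_1329 was at 0 with PBS and had 28, 643 and 793, at least 5.64-fold, 172-fold and 187-fold higher. The GATM median was -1.22 ± 0.24, and the mean over its sgRNAs was 0.62. Its single sgRNAs varied more over the comparisons than the median, with SDs from 1.95 (sgRNA_1331) to 2.75 (sgRNA_1329).

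GAMT was the 1 member gene with all 4 sgRNAs above 1000 counts with PBS. sgRNA_1313 had 1720 with PBS and 967, 1397 and 1264 with oxaliplatin, and sgRNA_1314 had 2404 and then 709, 3655 and 3306. sgRNA_1315 had 5947 and then 540, 7262 and 5591, and sgRNA_1316 had 1670 and then 451, 1178 and 2134. In oxaliplatin replicate 1 all 4 were lower, by 2.94-fold, 5.61-fold, 18.2-fold and 6.12-fold. In replicates 2 and 3 they ranged from 1.93-fold lower to 1.22-fold higher. The median was accordingly -2.55 in replicate 1 and -0.33 and -0.37 in replicates 2 and 3, a mean of -1.08 ± 1.27. Over all sgRNAs with at least 100 PBS counts the medians were -1.43, -0.74 and -0.66 in replicates 1, 2 and 3. The 4 sgRNAs of GAMT lay closest together of the 10 genes, with a range of 0.85 between their mean log2 fold changes, against 4.26 for ASS1 and 7.56 to 10.5 for the other 8. GAMT was also the 1 gene of the 10 with no sgRNA under 10 PBS counts. Among the neighbouring genes listed below, those with all 4 sgRNAs at 100 or more PBS counts had ranges from 1.13 (NOS1) to 3.84 (NOS2).

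**Figure D2:**
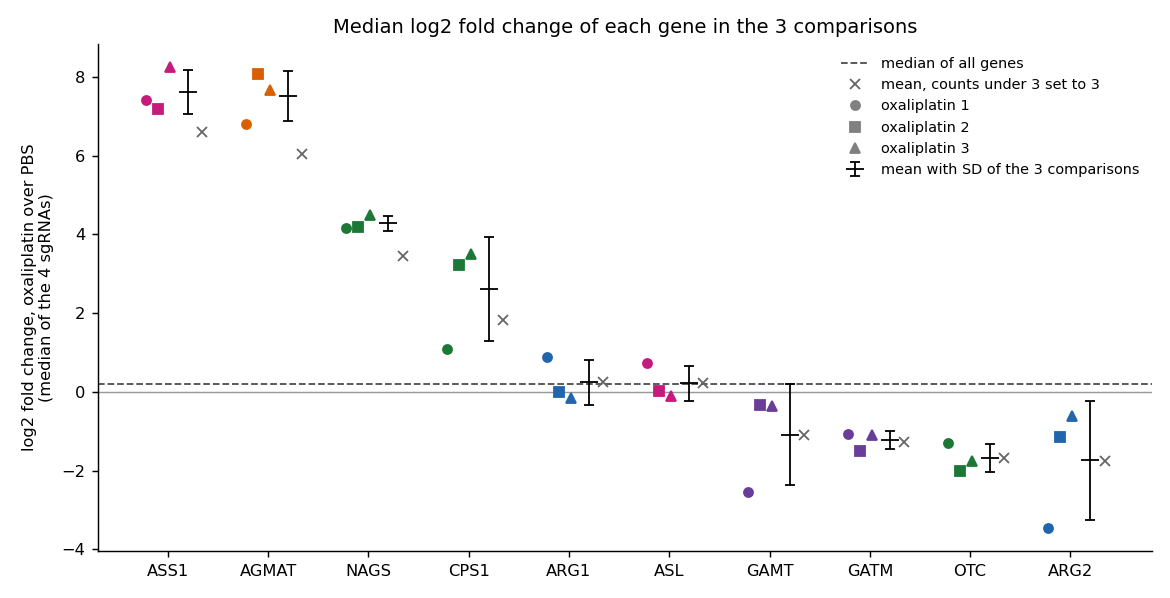
Median log2 fold change over the 4 sgRNAs of each gene (y axis) in oxaliplatin replicates 1, 2 and 3 against PBS, with genes (x axis) in the order of the mean of the 3 comparisons. Error bars are the SD of the 3 comparisons, which share the PBS library, crosses use counts under 3 set to 3, and the dashed line is the median of all genes at 0.20. ASS1 and AGMAT lie above 6 in all 3 comparisons, and the spread of GAMT and ARG2 comes from low values in replicate 1.

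In the order of the gene medians, ASS1 and AGMAT at the top (7.62 and 7.52) differed by less than the SD of either, ARG1 and ASL (0.24 and 0.22) likewise, and the lowest 4, GAMT, GATM, OTC and ARG2, lay between -1.08 and -1.74 with SDs of 0.24 to 1.51. Over the 40 sgRNAs the median of the mean log2 fold change was 0.28, against -0.08 over all sgRNAs. On CPM summed per gene, the PBS value lay below all 3 oxaliplatin libraries for 3 of the 10 genes (ASS1, AGMAT and NAGS), where 19.7% of the 1773 genes were so placed, and above all 3 for 4 (ARG2, OTC, GATM and GAMT), where 38.7% were. NAGS had 803 CPM with PBS and 1979, 1690 and 1587 with oxaliplatin, and GAMT had 1314 with PBS and 96.8, 1286 and 1103. These directions depend on the scaling for some genes. With the median ratio GATM left the group below PBS, and with TMM, edgeR's trimmed mean scaling, ASL and ARG1 joined the group above while GATM and GAMT left the group below.

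For single sgRNAs, 17 of the 40 were at least 2-fold higher in all 3 comparisons, where 30.8% of all 7026 sgRNAs with a value in each were, and 8 were at least 2-fold lower, where 18.1% were. The 17 comprised the 16 sgRNAs with under 10 PBS counts and sgRNA_6536 of NAGS. The 8 were sgRNA_388 of ASL, sgRNA_355 and sgRNA_356 of ARG2, 3 of OTC and 2 of GATM, and all had at least 100 PBS counts, a class in which 25.6% of all sgRNAs were lower in this sense. The PBS count moved with the fold change in the same way over the whole library, where 99.9% of the sgRNAs with under 10 PBS counts and 25.5% of those with at least 100 had a mean log2 fold change above 0. Among the members these were 16 of 16 and 5 of 24. The median of the 16 was 6.93, against 7.16 for all sgRNAs of that class, and the median of the 24 was -0.93 against -0.96. The part of the PBS counts in the gene values was not tested. With at least 100 PBS counts required, 1 gene (AGMAT) of the 9 that kept an sgRNA had a median above 0, and ASS1 had no sgRNA left.

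**Figure D3:**
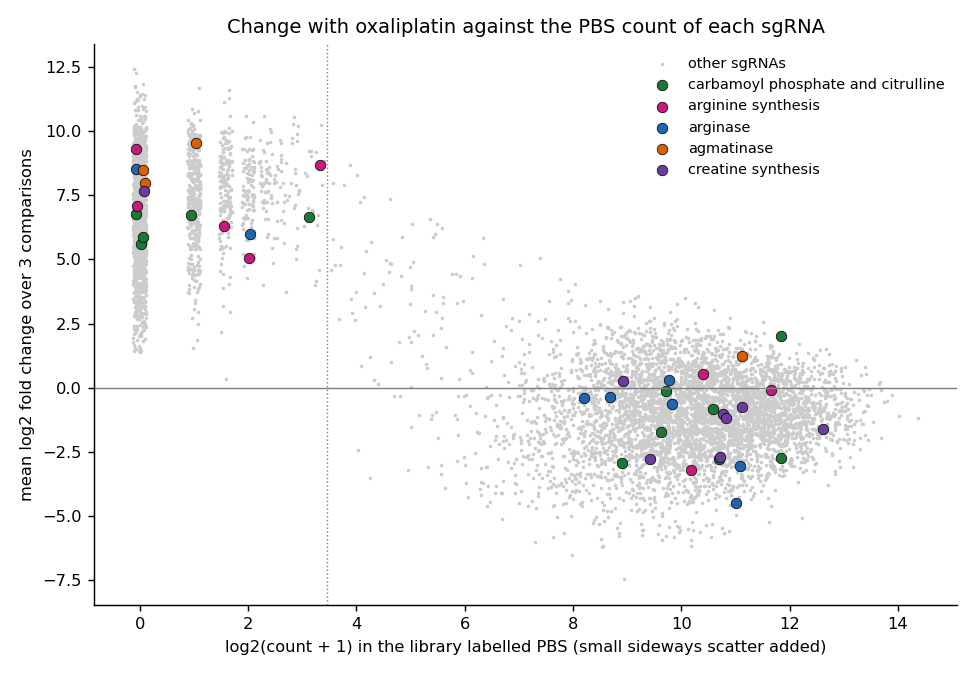
Mean log2 fold change over the 3 comparisons (y axis) against log2(count + 1) in the library labelled PBS (x axis) for all sgRNAs (grey) and the 40 member sgRNAs (coloured by role), with a dotted line at 10 counts. The 16 members left of the line lie between 5.05 and 9.55, and the 24 right of it between -4.49 and 2.03.

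edgeR's quasi-likelihood test per sgRNA called 2 of the 40 higher with oxaliplatin, sgRNA_401 of ASS1 (adjusted p 0.0426) and sgRNA_5667 of AGMAT (adjusted p 0.0482), where 8.35% of the 7111 sgRNAs tested were called. It called 0 of the 40 lower, where 0% of all were, and at an unadjusted p under 0.05 there were 15 of the 40 higher and 0 lower, where 25.8% of all were higher and 1.45% lower. The next members by adjusted p were sgRNA_6533 of NAGS (0.0503) and sgRNA_5665 of AGMAT (0.0505), just past the threshold. DESeq2 called 16 of the 40 higher, where 28.5% of all were, and 0 lower, where 0.408% were. Those 16 were the sgRNAs with under 10 PBS counts, and they include the 2 called by edgeR. All 16 met the filter of at least 10 counts in at least 1 library only through the oxaliplatin libraries. With no filter edgeR called the same 2 members higher, among 595 of all 7140 sgRNAs. With at least 3 PBS counts required, a setting chosen after seeing the data, edgeR called 0 of the 28 members left and 0 of all 5216 sgRNAs, with 4 members higher at an unadjusted p under 0.05, where 5.64% of all were.

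Oxaliplatin replicate 1 stood apart from replicates 2 and 3 for these sgRNAs, as it did over the whole library. Over the 40 members, replicates 2 and 3 correlated at r = 0.958 (Pearson, log2(CPM + 1), 40 sgRNAs of the same cells, so a description only), against 0.959 over all sgRNAs. Of the 40 members 0 differed by 4-fold or more between replicates 2 and 3, where 1.41% of all sgRNAs did. Replicate 1 correlated at 0.384 with replicate 2 and 0.378 with replicate 3, against 0.632 and 0.651 over all sgRNAs. Of the 40 members 26 differed by at least 4-fold between replicates 1 and 2, 20 of them lower and 6 higher in replicate 1, where 49.3% of all sgRNAs differed as much. The median over all sgRNAs was also lower in replicate 1, at 18.0 CPM against 66.2 in replicate 2. Among those 20 members were 3 of the 4 sgRNAs of GAMT, and among the 6 was sgRNA_5668 of AGMAT at 1990 CPM against 31.8 and 37.1. Replicate 1 was sequenced more deeply than the others, and its part in the results was not tested beyond leaving it out.

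**Figure D4:**
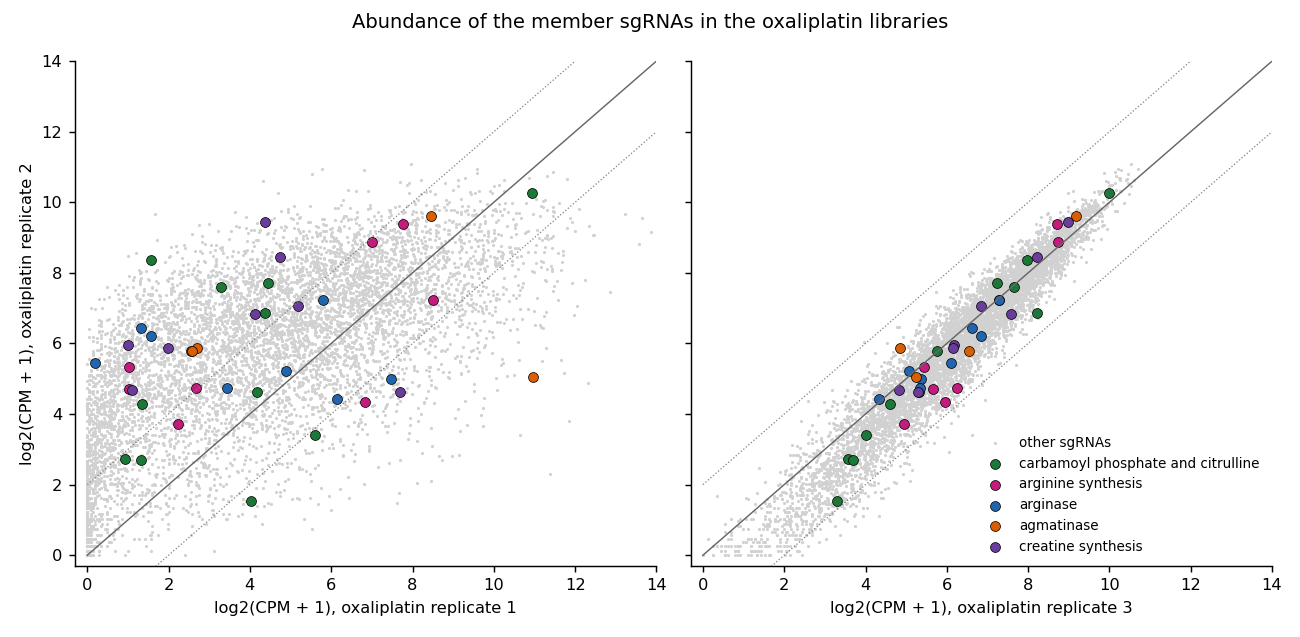
Log2(CPM + 1) in oxaliplatin replicate 2 (y axes) against replicate 1 (left x axis) and replicate 3 (right x axis) for all sgRNAs (grey) and the 40 member sgRNAs (coloured by role), with solid lines at equal values and dotted lines at 4-fold. In the left panel 26 members lie beyond the dotted lines, where 49.3% of all sgRNAs do, and in the right panel 0, where 1.41% do.

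Without oxaliplatin replicate 1, edgeR called 19 of the 40 sgRNAs higher, where 38.2% of all were, and 8 lower, where 15.5% were. The 19 were the 16 with under 10 PBS counts, sgRNA_6536 of NAGS, sgRNA_5666 of AGMAT and sgRNA_698 of CPS1. Those 16 again met the filter only through the oxaliplatin libraries. The 8 were the 3 well counted sgRNAs of OTC, sgRNA_355 and sgRNA_356 of ARG2, sgRNA_388 of ASL, sgRNA_352 of ARG1 and sgRNA_1331 of GATM. On gene sums without replicate 1, edgeR called ASS1, AGMAT and NAGS higher, where 22.9% of all entries were, and ARG2 and OTC lower, where 18.2% were. The fold changes there were 8.96 for ASS1, 1.73 for AGMAT, 1.10 for NAGS, -0.80 for ARG2 and -1.73 for OTC, on the log2 scale. The other 5 genes were not called. Replicates 2 and 3, the libraries left, are the pair close to each other, and the test takes the spread of PBS from them.

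Genes next to these enzymes were taken as 3 lists, and by edgeR on gene sums 0 of their 22 genes found in the library passed in either direction (adjusted p from 0.709 to 0.965), with 0 at an unadjusted p under 0.05 and 0 called by DESeq2. Of the enzymes that use creatine, 4 of 5 were found, and their mean log2 fold changes were all above 0, with a median of 5.62 against 0.20 for all genes. CKB, the cytosolic brain-type creatine kinase, was the highest at 8.76 ± 1.39, at rank 3 of 1773 genes, and CKM, the muscle type, the lowest at 1.04 ± 0.41. Of their 16 sgRNAs 9 had under 3 PBS counts (56.2%, against 27.0% of all), and edgeR called 5 of the 16 higher, where 8.35% of all sgRNAs were, and 0 lower.

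Of the 10 genes listed by name under use of arginine or its derivatives, 6 were found, 4 of them with a mean above 0 and a median of 2.73. AZIN2 was 1 of those 4, and these data do not show that it acts on arginine. DDAH1, which breaks down methylated arginines, was the highest at 4.08 ± 0.17, and the inducible nitric oxide synthase NOS2 the lowest at -1.01 ± 0.11. The list for the link of ornithine with proline and glutamate also held CAD. Of its 13 symbols all but PYCRL were found, which gave 12 genes, 8 with a mean above 0 and a median of 0.94. CAD, which makes carbamoyl phosphate in the cytosol for pyrimidine synthesis, was the highest at 4.82 ± 0.43, and ornithine decarboxylase ODC1 the lowest at -0.79 ± 0.95. edgeR called 3 of the 24 and 7 of the 48 sgRNAs of these lists higher, where 8.35% of all were, and 0 lower. Without oxaliplatin replicate 1, edgeR called CKB and CKMT1B, AZIN2 and NOS3, and CAD, GLUD1, ODC1 and PYCR3 higher and ALDH18A1 lower on gene sums, where 22.9% and 18.2% of all entries were. ODC1 thus changed direction with the summary, from -0.79 as the median of its sgRNAs to 0.64 on sums by edgeR, and 0.94 without replicate 1.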

How the data were processed

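The authors deposited counts of sequenced reads for each sgRNA, as whole numbers, per library and as 1 table for the series, and both forms were equal for 100% of sgRNAs. The submitters' processing notes name MAGeCK and the mouse build mm10, with no version and no stated role, although the cells are human. How reads were matched to sgRNAs is not stated in the sources used here. Counts were used as deposited, and sgRNA IDs come without sequences. The 4 libraries were grouped by their treatment label. Fold changes were computed with Python 3.11.15, numpy 2.4.6 and pandas 2.3.3, with MAGeCK's median ratio, a pseudocount of 1 and a floor of 3 counts. Counts per sgRNA, and counts summed per gene, were fitted over the whole table with edgeR 4.0.16 (quasi-likelihood, TMM scaling, at least 10 counts in at least 1 library, Benjamini-Hochberg adjustment, threshold 0.05) and DESeq2 1.42.0 in R 4.3.3. The common dispersion was 0.795 per sgRNA and 0.372 per gene. Counting intervals are exact 95% intervals of the ratio of 2 counts. The steps were tested on simulated data in which no sgRNA was set to be scarce with PBS. Folds and calls from PBS counts under 10 were therefore not covered by that test. All 10 genes are named, and of the 3 neighbouring lists the highest, the lowest and any gene passing the test. Genes passing without replicate 1 were also named, after their values were seen. The members and lists were chosen with earlier results of these data known. Alternatives changed the scaling, pseudocount, filters, tool, summary and libraries used.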

Additional observations from a re-analysis of the deposited data

How the results depend on the processing

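The number of member sgRNAs called higher by edgeR (2) was 0 with total counts, 1 with median ratio size factors, 1 with a mean of at least 100 counts, 16 with DESeq2 and 0 with at least 3 PBS counts, and it ranged from 2 to 19 with 1 oxaliplatin replicate left out (19 without replicate 1, 5 without replicate 2, 2 without replicate 3). Over all sgRNAs the number called higher (594) was 0, 509, 412, 2026 and 0 in the same settings, and 2718, 612 and 345 without replicates 1, 2 and 3. The number called lower (0) ranged from 0 to 8, with 8 without replicate 1. Member genes called higher (0) were 1 with DESeq2 and ranged from 0 to 3, and those called lower (0) were 1 with DESeq2 and ranged from 0 to 2. Without replicate 3, sgRNA_401 and sgRNA_5667 were not called and sgRNA_350 and sgRNA_403 were, and without replicate 2 sgRNA_401 was called and sgRNA_5667 was not. The median over the 40 sgRNAs (0.28) was -0.93 with a minimum PBS count of 30 or 100. Members at least 2-fold higher in all libraries (17) were 11 with a pseudocount of 50 and 1 with a minimum PBS count of 30 or 100, and those at least 2-fold lower (8) were 5 with TMM and 5 with the median ratio over sgRNAs above 0, the latter chosen after seeing the data. Scalings of the summed counts were also tried after seeing the data, and with TMM 5 member genes lay above PBS in all libraries (3 with CPM) and 2 below (4 with CPM). The median over all genes was 0.20, -0.00 with total counts and 0.67 with TMM, so signs within that range depend on the scaling. Of 128 gene medians under alternatives, 87 moved by less than the SD of the 3 comparisons and 41 moved more. That SD differed between genes, from 0.19 (NAGS) to 1.51 (ARG2). Some of the 41 changed sign, such as CPS1 (2.61 to -0.48) and NAGS (4.28 to -0.35) with a minimum PBS count of 100. The cause of these shifts was not tested. PBS counts under 10, found for 16 of the 40 sgRNAs, limit how closely a fold can be given.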
